A study of Homo sapiens with 21 samples.

Results

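Perfluoroalkyl acids carry either a sulfonate or a carboxylate head group on a fluorinated carbon chain, and the 2 sulfonates PFOS and PFDS were set here against the 2 carboxylates PFOA and PFDA. The comparison holds 12 of the 21 libraries of the series, 6 of sulfonates and 6 of carboxylates, chosen by compound name alone. Chain length entered as a second factor, with PFOS and PFOA as the shorter pair and PFDS and PFDA as the longer pair, and no control library took part in the contrast. At a matched number of carbons the sulfonate carries 1 more fluorinated carbon than the carboxylate, so head group and length of the fluorinated tail cannot be told apart completely. The cells were SH-SY5Y, a human neuroblastoma line of genotype WT, differentiated into neuron-like cells for 11 days. Each compound was given at 30 µM for 24 h in solutions with 1% MeOH, so dose, time and solvent matched across the 4 compounds. The 3 control libraries, whose methanol content the labels do not state, are given only as a reference level. Ribosome-depleted total RNA was sequenced in 3 libraries per compound, and no label says whether these were grown as separate cultures, so every p-value here refers to the variation among libraries, part of which may be technical.

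Both classes are surfactant-like anions that bind serum albumin and fatty acid binding proteins and are known as ligands of the lipid-sensing nuclear receptor PPARα. The acids resist metabolism, so a cell meets the parent anion rather than a breakdown product. The gene list with the largest median difference between the classes below is that of the integrated stress response. In this response, phosphorylation of the translation factor eIF2α slows protein synthesis while the transcription factor ATF4 is translated. That factor switches on genes for amino acid transport and synthesis. ATF4 works as a dimer with C/EBP-family partners on a composite element whose core is TGATGNAA, where N is any base.

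That element was looked for in promoters of the integrated stress response genes, because they are the list with the largest median difference between the classes. Of the 28 listed genes that passed the filter on low counts, 24 had a promoter window in RefSeq (build GRCh38.p14, 250 bases before to 50 after the annotated start). The element stood on either strand in 7 of these 24, against 374 of 13219 tested genes with a window (2.83%) and 3.62% of all 35116 windows of 300 bases. The sites of 5 genes are printed below in the direction of the gene, with the element in capitals, because they are the sequence feature these members share.
SLC7A1: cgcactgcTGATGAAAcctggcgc
CEBPG: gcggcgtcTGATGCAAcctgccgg
JDP2: gccggggcTGATGCAAcccgtccc
ASNS: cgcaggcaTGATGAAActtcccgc
CHAC1: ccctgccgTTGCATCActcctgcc
They lie at chr13:29595666-29595689 (minus strand), chr19:33374063-33374086 (plus), chr14:75427998-75428021 (plus), chr7:97872461-97872484 (minus) and chr15:40953254-40953277 (plus), and in CHAC1 the element reads on the strand opposite to the gene. ATF3 and SLC3A2 held the other 2 matches. A match of letters is a description and shows no binding. The list holds genes of a response that ATF4 drives, so a higher share than among all genes was likely in advance. That share does not bear on sulfonates against carboxylates.

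Total counts of the 12 libraries ran from 11245199 to 30429746, and the classes did not differ in total count (exact permutation test over the 6 and 6 libraries, two-sided p = 0.978, smallest possible 0.00216), in genes detected (p = 0.561) or in the share of counts from mitochondrial genes (p = 0.502). PFDA replicate 2 (5.4%) and PFDS replicate 1 (5.24%) had a higher mitochondrial share than the other 10 libraries, which held 3.37% to 4.12%. PFDS replicate 1 also stood apart on the second principal component. The noradrenergic neuron markers were present in all 12 libraries at summed levels of 5230 to 6550 CPM (counts scaled to the size of the library), although TH, the first enzyme of catecholamine synthesis, reached at most 1.24 CPM and was at 0 in PFOA replicate 1. The 8 tested Schwann and glial markers summed to 28 to 35.2 CPM.

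**Figure D1:**
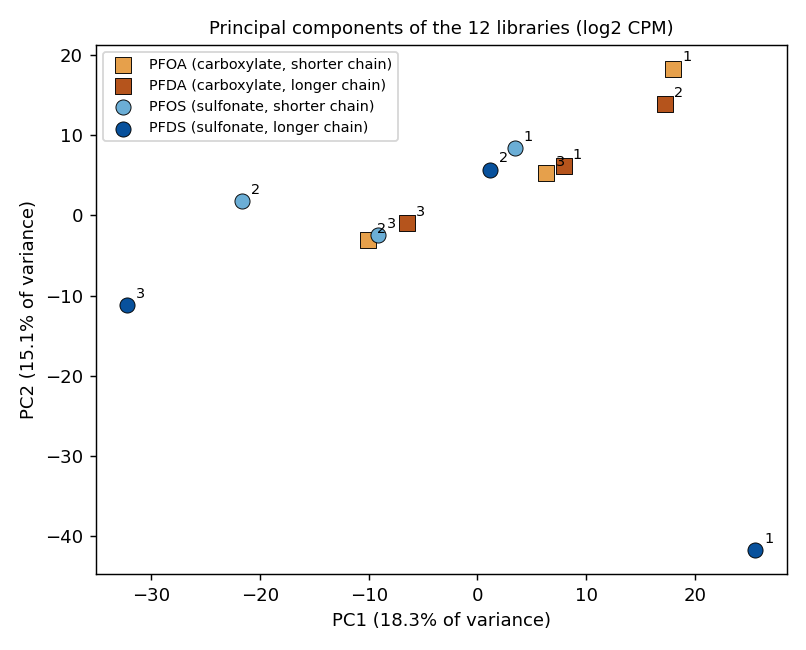
First and second principal components of log2 CPM over 19841 genes in the 12 libraries, as shares of the variance (18.3% and 15.1%); circles are sulfonates, squares carboxylates, and numbers are replicates. The classes overlap on both axes, and PFDS replicate 1 lies alone at the bottom.

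No gene differed between sulfonates and carboxylates past the threshold. With edgeR's quasi-likelihood test and Benjamini-Hochberg adjustment, 0 of 24879 genes (percent called 0%) had an adjusted p under 0.05, and the smallest was 0.175, for ALDOA. At an unadjusted p under 0.05 the test gave 1775 genes (7.13%), 990 of them with the higher mean in sulfonates (3.98%) and 785 with the lower (3.16%). The DESeq2 test also called 0, with 1908 of 45852 genes (4.16%) at an unadjusted p under 0.05, over a wider set of genes. Head group accounted for 9.96% of the summed variation in log2 CPM among the 12 libraries, chain length for 8.95% and their interaction for 8.46%, where 1 of 11 degrees of freedom is 9.09%. The 3 shares are thus near that of any single split of 12 libraries.

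The intervals show how large a head group difference the data could still hold. Over the 19841 genes with a mean of at least 1 CPM the median half-width of the 95% interval was 0.211 log2 units, and the median absolute difference was 0.085. For 77% of these genes the whole interval lay within a 1.5-fold difference in either direction, and for 97.4% within 2-fold. An estimate beyond 1.5-fold was seen for 0.832%. A missed threshold does not show that the classes act alike. Differences above 2-fold still fall outside the interval for nearly all genes at 1 CPM or more.

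ALDOA, the glycolytic enzyme aldolase A (chr16:30064164-30070457, hg38, plus strand), had the smallest p. The PFOS libraries held 19, 25.4 and 18.2 CPM and the PFDS libraries 22.7, 19.8 and 23.3, against 14.5, 14.4 and 14.5 in PFOA and 17.3, 14.7 and 16.7 in PFDA. All 6 sulfonate libraries lay above all 6 carboxylate libraries, a pattern seen with sulfonates higher for 32 genes (0.129%). In either direction 65 genes (0.261%) did not overlap. A random split of 12 libraries gives 0.00216, as a fraction and not in percent, so the observed and random shares are of similar size. Such non-overlap is therefore only a description, also for the genes below. The mean was 21.4 ± 2.83 CPM in sulfonates and 15.3 ± 1.28 in carboxylates (SD, n = 6), a log2 difference of 0.48 (95% interval 0.29 to 0.67, edgeR adjusted p = 0.175). Controls averaged 20.6 CPM, close to the sulfonates. The gene shares exons with ENSG00000285043, whose own log2 difference was 0.14 (-0.24 to 0.52), and reads in shared exons were not assigned to either, so the level of ALDOA is uncertain. ALDOA passed only when genes of low count were kept in the fit (adjusted p = 0.00645).

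SLC7A5, the light chain of the large neutral amino acid transporter and a target of ATF4 (chr16:87830023-87869507, minus strand), came next. It stood at 110, 128 and 126 CPM in PFOS and 120, 110 and 131 in PFDS, against 89.2, 99.2 and 98.2 in PFOA and 101, 94.3 and 117 in PFDA. Only PFDA replicate 3 reached into the sulfonate range. The log2 difference was 0.27 (0.14 to 0.40, edgeR adjusted p = 0.60), and controls averaged 92.3 CPM, below both class means of 121 and 99.9. SHMT2, the mitochondrial serine hydroxymethyltransferase of one-carbon metabolism, ran from 63.7 to 73.3 CPM in sulfonates and from 52.7 to 68.5 in carboxylates, where PFDA replicate 3 was again the highest. Its log2 difference was 0.26 (0.12 to 0.40).

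CDK5R2, a neuronal activator of the kinase CDK5, did not overlap between the classes. Its sulfonate libraries ran from 44.7 to 52.1 CPM and its carboxylate libraries from 36.7 to 42.6, for a log2 difference of 0.28 (0.14 to 0.42, edgeR adjusted p = 0.60). PHF8, a histone demethylase, ran from 61.7 to 74.1 CPM in sulfonates and 49.9 to 60.9 in carboxylates, and SRPRA, a subunit of the signal recognition particle receptor, from 93.7 to 107 and 75.6 to 93.2. Both kept the classes apart, with log2 differences of 0.21 (0.10 to 0.33) and 0.21 (0.10 to 0.32). Control means of 44.4, 62.0 and 93.3 CPM for CDK5R2, PHF8 and SRPRA lay between the means of the classes.

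Of the 20 protein-coding genes at 1 CPM or more with the smallest p, 17 had the higher mean in sulfonates and 3 the lower. The protein-coding genes as a class leaned the same way. Of 14437 tested, 888 were higher and 349 lower at an unadjusted p under 0.05. NOD1, an intracellular sensor of bacterial peptidoglycan (chr7:30424527-30478784, minus strand), stood at 23, 20.3 and 19.3 CPM in PFOS and 20.9, 21 and 18.1 in PFDS, against 30.3, 23.4 and 25.2 in PFOA and 23.9, 28.1 and 23.3 in PFDA. Every sulfonate library lay below every carboxylate library, as for 33 genes in all (0.133%), and the log2 difference was -0.32 (-0.49 to -0.16, edgeR adjusted p = 0.60). CD46, a membrane regulator of complement, averaged 219 ± 23.5 CPM in sulfonates and 256 ± 19.4 in carboxylates (SD, n = 6), a difference of -0.23 (-0.34 to -0.11), with controls at 210. PAQR6, a membrane receptor of the progestin and adipoQ family, differed by -0.39 (-0.59 to -0.18).

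The remaining 11 of these 20 were all higher in sulfonates on average, by 0.21 to 0.42 log2 units. They include the small GTPase RAB3A of synaptic vesicles (0.30, 0.15 to 0.46), the neuronal splicing factor NOVA2 (0.21, 0.10 to 0.33) and the guidance molecule SEMA6A (0.29, 0.13 to 0.46). SEMA6A was highest in PFDS replicate 1, at 62.1 CPM against 38.4 to 44.5 in the other sulfonate libraries. Its difference was 0.20 without that library and 0.18 without both libraries of highest mitochondrial share. DUSP8, a phosphatase of stress-activated kinases, differed by 0.24 (0.12 to 0.36). COL4A2, a basement membrane collagen, differed by 0.26 (0.12 to 0.41), and the extracellular proteoglycan SPOCK1 by 0.29 (0.15 to 0.44). The RNA-binding protein PCBP1 differed by 0.42 (0.20 to 0.64), but it overlaps PCBP1-AS1, and RAB3A overlaps MPV17L2. The others with reported values were the transcriptional corepressor BCORL1 (0.23, 0.12 to 0.34), PTMS (0.22, 0.10 to 0.34) and the ribosomal protein RPL28 (0.23, 0.10 to 0.35). None of the 20 passed (edgeR adjusted p from 0.175 to 0.611).

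**Figure D2:**
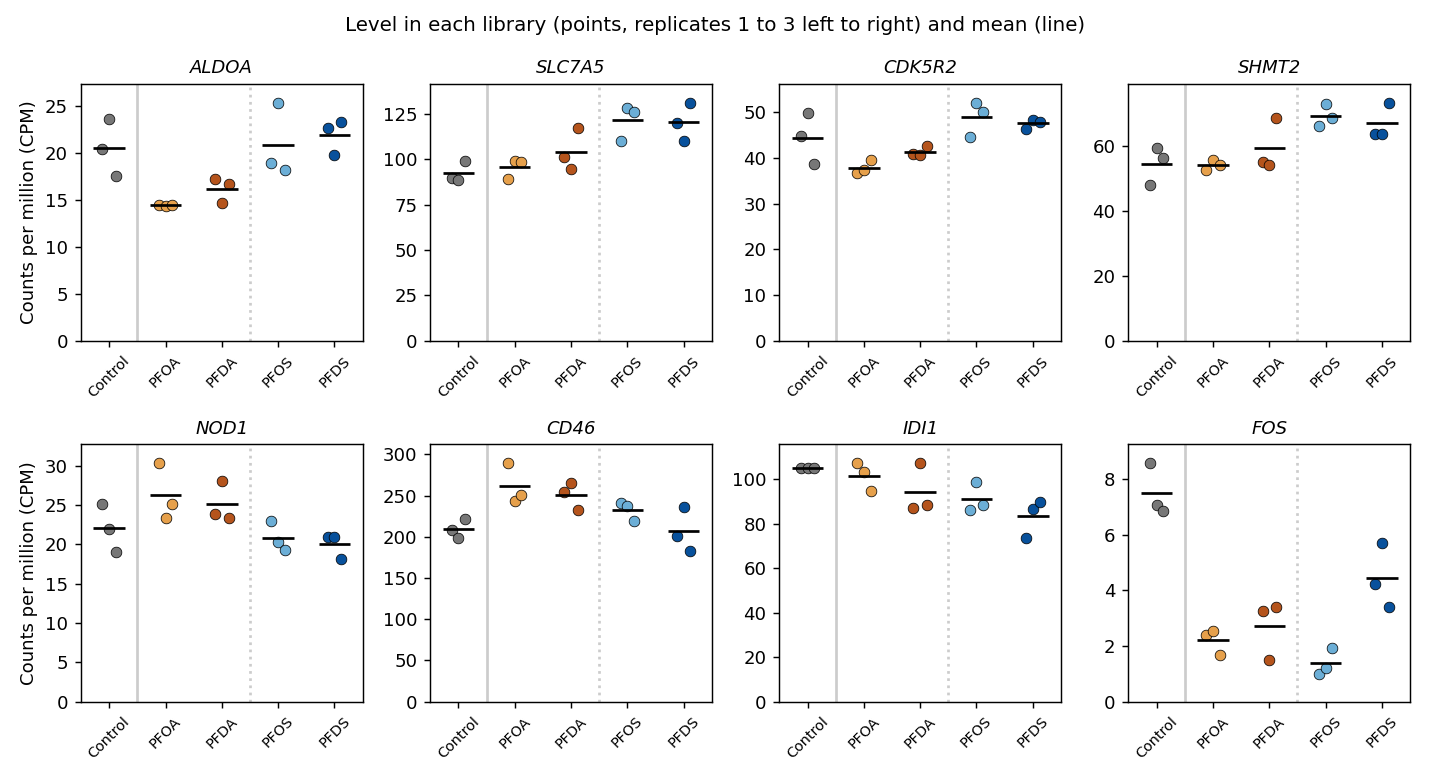
Level of 8 genes in CPM (vertical axis from 0) in each control, PFOA, PFDA, PFOS and PFDS library; points are libraries and lines are means of 3. In ALDOA and CDK5R2 all sulfonate points lie above all carboxylate points, in NOD1 all lie below, and FOS is highest in the controls.

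The integrated stress response list had the largest median of the 34 lists. Of 28 members that passed the filter, out of 30 listed, 26 had the higher mean in sulfonates and 10 of these an unadjusted p under 0.05, while 48.4% of all tested genes were higher in sulfonates and 3.98% were so at that p. Among the 14437 protein-coding genes, 8164 were higher in sulfonates, 888 of them at that p. The median log2 difference was 0.157, against -0.005 over all tested genes and 0.017 over the protein-coding ones, and no member passed the threshold. SLC7A1, the cationic amino acid transporter, ran from 313 to 389 CPM in sulfonates and from 247 to 347 in carboxylates, a difference of 0.20 (0.09 to 0.32). GPT2, the mitochondrial alanine transaminase, ran from 97.7 to 113 and from 82.0 to 98.4, a difference of 0.19 (0.07 to 0.31). Of the other genes whose promoter sites are printed above, CHAC1, a glutathione-degrading enzyme, averaged 19.8 and 16.2 CPM, a difference of 0.27 (0.06 to 0.49). CEBPG, a C/EBP-family partner of ATF4, averaged 91.4 and 82.1 CPM (0.16, 0.04 to 0.27), and JDP2, a repressor of the AP-1 family, 5.3 and 4.34 (0.28, -0.05 to 0.61). ASNS, the asparagine synthetase, averaged 18.9 and 18.4 CPM, a difference of 0.03 (-0.16 to 0.22). The other genes with the element were near it, ATF3 at 0.03 (-0.16 to 0.21) and SLC3A2 at 0.06 (-0.05 to 0.17). ATF4 itself averaged 155 and 138 CPM, a difference in mRNA of 0.17 (0.04 to 0.29). SLC7A11, the cystine transporter, averaged 11.3 and 10.1 CPM with 6.29 in controls, a difference of 0.16 (-0.07 to 0.39). Summed list levels overlapped between the classes, with PFDA replicate 3 at 1810 CPM and PFDS replicate 2 at 1710.

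The median stress response difference was larger in the shorter pair. In the longer pair it was not the largest of the lists. Hypoxia and glycolysis had 0.120, adrenergic transcription factors 0.114, mitochondrially encoded genes 0.111 and chaperones of the endoplasmic reticulum 0.108. Noradrenergic markers had 0.095, the same as the stress response list, and cholesterol genes -0.100. PFOS minus PFOA had a list median of 0.240 with 25 of 28 members positive and 11 at an unadjusted p under 0.05 in the higher direction (2.81% of all genes), and PFDS minus PFDA a median of 0.095 with 21 of 28 positive and 3 at that p (2.63%). For SLC7A11 the values were 0.39 (0.07 to 0.72) and -0.08 (-0.40 to 0.25). No member of the list differed between the pairs past the threshold (edgeR, 0 called in the interaction), and the list median of the interaction was -0.138. Across the alternatives the pooled median stayed between 0.124 and 0.181, with 23 to 27 members positive.

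**Figure D3:**
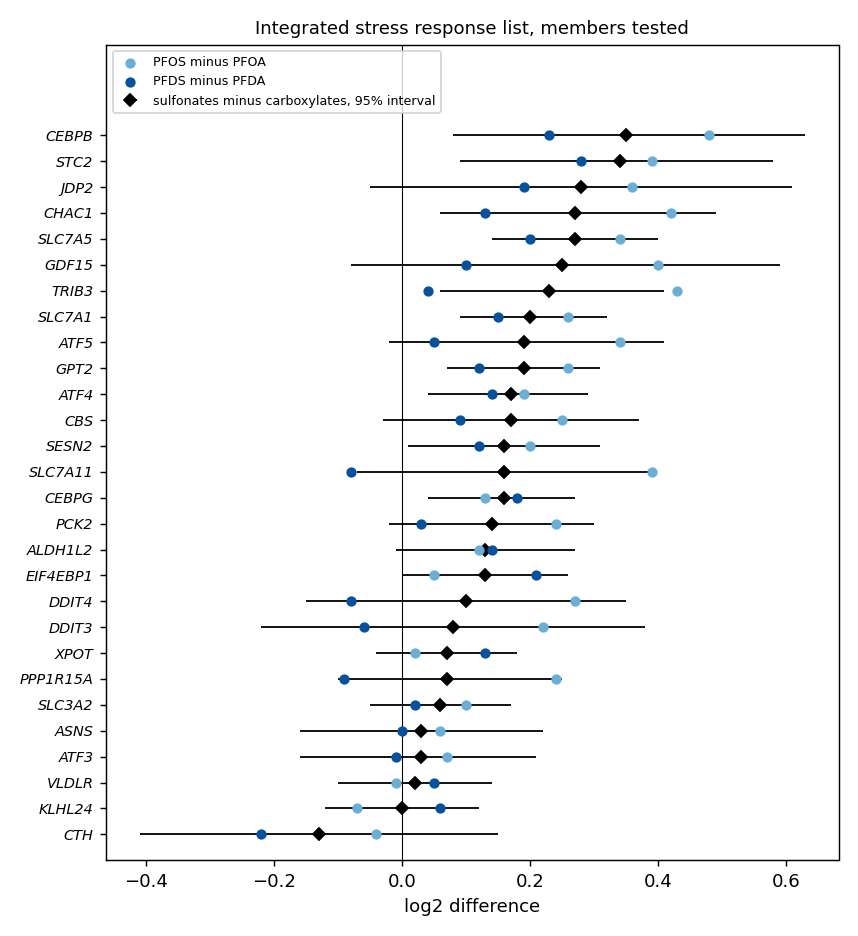
Log2 differences of the 28 tested members of the integrated stress response list; diamonds with bars are sulfonates minus carboxylates with 95% intervals, and circles are the pairs PFOS minus PFOA and PFDS minus PFDA. All but CTH and KLHL24 lie to the right of 0, and the PFOS minus PFOA circle is usually the further right.

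A trend with GC content and level moved with the same contrast. Over 18897 genes the head group difference correlated with GC content (Spearman's rho 0.222) and with level (0.218), as a description across genes that share libraries. Genes in the bottom 20% by GC content had a median difference of -0.031 and those in the top 20% one of 0.055, and 68.2% of the 2480 genes at 100 CPM or more were higher in sulfonates. In the shorter pair the GC correlation was 0.330, in the longer pair 0.010. With both trends taken out, the stress response median was 0.117 with 27 of 28 members positive. The part of the trends in the list medians was otherwise not tested.

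Genes of glycolysis and the hypoxia response were the second list. Of 28 tested members 26 had the higher mean in sulfonates, with a median of 0.128. At an unadjusted p under 0.05 there were 13 (3.98% of all genes, and 888 of 14437 protein-coding genes). PFKFB3, which makes the activator of phosphofructokinase, ran from 41 to 53.7 CPM in sulfonates and 35.6 to 42.3 in carboxylates (0.25, 0.10 to 0.39), and PFKP, a phosphofructokinase, differed by 0.15 (0.05 to 0.25). The list medians were 0.130 for PFOS minus PFOA and 0.120 for PFDS minus PFDA, but single members varied between the pairs. The adrenomedullin gene ADM, chosen here after its values were seen, stood at -0.29 (-0.97 to 0.39) and 0.58 (-0.04 to 1.22). With GC and level trends removed the median was 0.065 and 23 of 28 members stayed positive.

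Neuronal identity genes followed. Of 19 adrenergic neuroblastoma transcription factors 18 were higher in sulfonates on average, with a median of 0.124 that became 0.068 without the trends. Of the 13 noradrenergic markers 10 were higher, 6 at an unadjusted p under 0.05, with a median of 0.125 that became 0.043, and that was 0.045 without PFDS replicate 3. Markers of substrate-adherent mesenchymal-like neuroblastoma cells, the other cell state of such lines, leaned the same way, with 8 of 10 higher and a median of 0.064 that became 0.08, and that was 0.113 without PFDS replicate 1 and 0.038 without PFDS replicate 3. The part of cell state in these medians was not tested. GATA3, a factor of the sympathetic lineage, ran from 275 to 331 CPM in sulfonates and from 229 to 288 in carboxylates (0.18, 0.08 to 0.29). DBH, the enzyme that makes noradrenaline, averaged 1230 ± 96.2 and 1110 ± 96.5 CPM (SD, n = 6), a difference of 0.16 (0.03 to 0.29). Of 33 genes of the neuronal cytoskeleton and neurite growth 28 were higher on average, with a median of 0.075 that was 0.017 without the trends. Mitochondrially encoded genes (11 of 13 higher, median 0.101) depended on 2 libraries: without PFDS replicate 1 the median was -0.017, and without PFDA replicate 2 it was 0.261. Cytosolic ribosomal proteins had a median of 0.040 that was -0.014 without the trends.

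Cholesterol synthesis and uptake leaned the other way, as did the nuclear respiratory chain (23 of 35 members lower, median -0.026) and the Schwann and glial markers (6 of 8 lower, median -0.075). Without PFDS replicate 1 the respiratory chain median turned to 0.016, with 21 of 35 members higher. Without PFDS replicate 3 it was -0.068. The marker median ran from -0.181 without PFDS replicate 1 to -0.02 without PFOS replicate 2. Of 24 tested cholesterol genes 18 had the lower mean in sulfonates, 4 of them at an unadjusted p under 0.05 (3.16% of all genes), with a median of -0.074. IDI1, the isopentenyl diphosphate isomerase of the pathway (chr10:1039152-1049119, minus strand), stood at 86, 98.5 and 88.5 CPM in PFOS and 73.5, 86.7 and 89.8 in PFDS, against 107, 103 and 94.6 in PFOA and 86.9, 107 and 88.2 in PFDA. The lowest value was PFDS replicate 1, and the groups overlapped. The log2 difference was -0.16 (-0.29 to -0.04), with controls at 105 CPM. MVK, the mevalonate kinase, differed by -0.16 (-0.30 to -0.02), and it overlaps MMAB. Without PFDS replicate 1 the list median was -0.013 and 11 of 24 members were positive, and without PFDS replicate 3 the median was -0.129, so its size depends on single libraries.

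Lists close to the known actions of these acids gave small medians. PPAR targets and fatty acid oxidation had 16 of 33 members higher and a median of -0.002, and the fatty acid transporter FABP3 differed by -0.21 (-0.46 to 0.05). Fatty acid synthesis and desaturation had a median of 0.012, sphingolipid genes 0.021, phospholipid and triacylglycerol synthesis 0.031, and nuclear receptor xenobiotic targets 0.063. Transporters of organic anions and lipids had 16 of 28 members lower and a median of -0.038. The urate and organic anion transporters SLC22A11 and SLC22A8 in that list had the largest differences, -1.92 (-3.33 to -0.61) and -0.86 (-1.55 to -0.18), but at means of only 0.145 and 0.716 CPM in sulfonates and 0.573 and 1.37 in carboxylates.

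**Figure D4:**
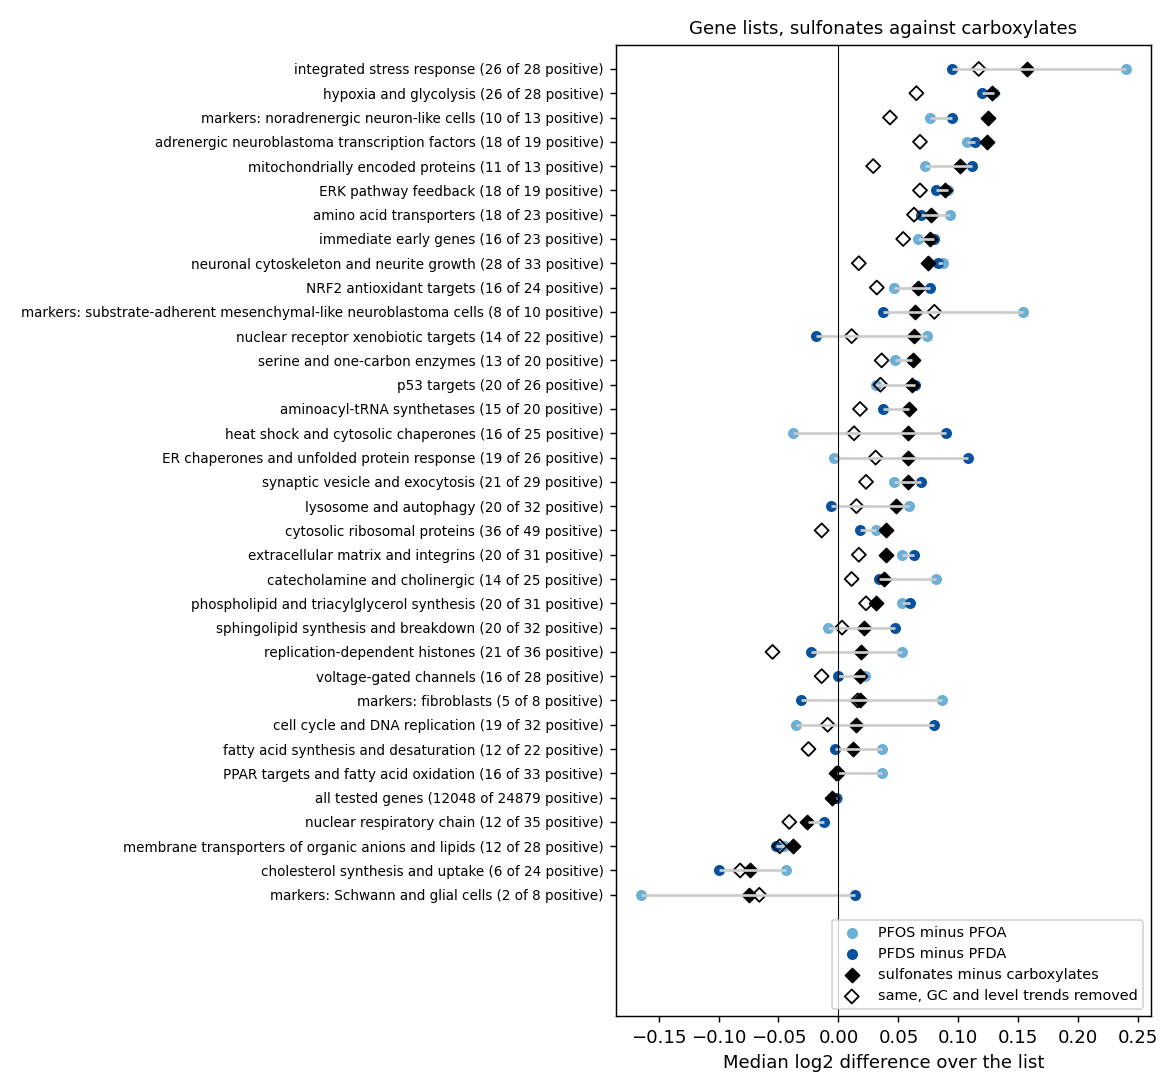
Median log2 difference over each gene list (horizontal axis) for sulfonates minus carboxylates (filled diamonds), the same with GC and level trends removed (open diamonds), PFOS minus PFOA and PFDS minus PFDA (circles), beside all tested genes. Among the filled diamonds, integrated stress response genes lie furthest right, and cholesterol synthesis and Schwann and glial markers furthest left. For PFDS minus PFDA, the stress response circle (0.095) lies left of hypoxia and glycolysis (0.12), and Schwann and glial markers lie at 0.014.

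The head group difference was compared between the chain lengths, since the 2 pairs share no library. Over 11171 genes at 10 CPM or more, PFOS minus PFOA and PFDS minus PFDA had a Pearson correlation of 0.165 across genes and a Spearman correlation of 0.212, and 57.7% of genes had the same sign. Of 718 genes with an unadjusted p under 0.05 in PFOS minus PFOA, 525 (73.1%) had the same sign in PFDS minus PFDA, and of 731 such genes in PFDS minus PFDA, 522 (71.4%) had the same sign in PFOS minus PFOA. With that p in both pairs, 53 genes shared the sign and 8 had opposite signs. Genes are not independent replicates. Over the wider set of 18897 genes at 1 CPM or more with a GC value, level correlated with both contrasts (Spearman's rho 0.082 and 0.238). In that set GC content correlated with PFOS minus PFOA. For chain length, PFDA minus PFOA and PFDS minus PFOS shared the sign for 50.4% of genes, with a Pearson correlation of 0.184 and a Spearman correlation of 0.019. Of 351 genes with an unadjusted p under 0.05 in PFDA minus PFOA, 195 (55.6%) had the same sign in PFDS minus PFOS. In the other direction it was 287 of 489 (58.7%). With that p in both chain length pairs, 19 genes shared the sign and 5 had opposite signs. Whether head group and chain length differ in this was not tested.

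**Figure D5:**
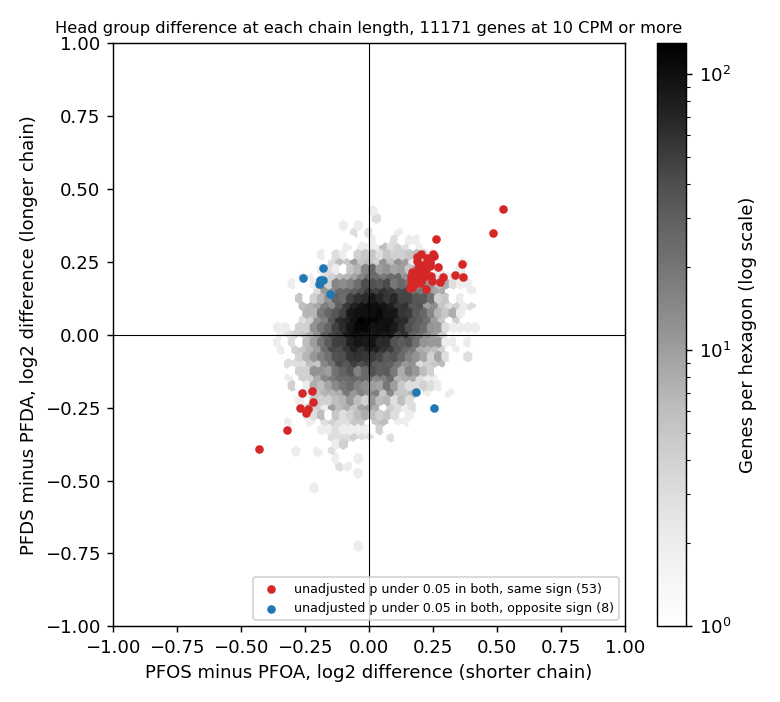
Log2 difference of PFOS minus PFOA (horizontal) and of PFDS minus PFDA (vertical) for 11171 genes at 10 CPM or more, as density on a log scale; 4 genes fall outside the axes. Red points are the 53 genes with an unadjusted p under 0.05 in both and the same sign, blue points the 8 with opposite signs.

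The 4 matched pairs were compared directly, with p-values adjusted jointly over all genes and all 4 pairs. None had a gene past the threshold (edgeR, 0 in each). At an unadjusted p under 0.05, PFOS minus PFOA had 1220 genes (4.90%), PFDS minus PFDA 1390 (5.59%), PFDA minus PFOA 729 (2.93%) and PFDS minus PFOS 1087 (4.37%). The median half-width of the 95% interval was 0.3 for PFOS minus PFOA and 0.297 for PFDS minus PFDA, where 87.0% and 86.7% of genes had the whole interval within a 2-fold difference. CORIN, a transmembrane serine protease, had the smallest p in PFDS minus PFDA (adjusted p = 0.643). It stood at 11.0, 15.8 and 13.7 CPM in PFDS, below every library of PFDA (20.5, 22.7 and 20.6), for a log2 difference of -0.65 (-0.92 to -0.37), while PFOS minus PFOA gave 0.06 (-0.21 to 0.33).

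Chain length called 0 of 24879 genes (0%), with 967 at an unadjusted p under 0.05 (3.89%), of which 451 were higher with the longer chain (1.81%) and 516 lower (2.07%). The 6 and 6 libraries did not overlap for 21 genes that were higher (0.0844%) and 42 that were lower (0.169%). The smallest adjusted p was 0.0955, for RNY3P1. FOS, the immediate early transcription factor (chr14:75278826-75282230, plus strand), stood at 4.22, 5.69 and 3.42 CPM in PFDS and 3.25, 1.5 and 3.39 in PFDA, against 1.00, 1.20 and 1.92 in PFOS and 2.40, 2.54 and 1.67 in PFOA. All 12 values were below those of the controls (8.57, 7.08 and 6.85). The longer chain gave the higher mean by 1.05 log2 units (0.62 to 1.48, edgeR adjusted p = 0.117), and the head group difference was -0.02 (-0.45 to 0.40). It had opposite signs in the 2 pairs, -0.70 (-1.35 to -0.05) for PFOS minus PFOA and 0.65 (0.09 to 1.20) for PFDS minus PFDA, an interaction of 1.34 (0.49 to 2.20) that did not pass. Adjusted within the pair PFDS minus PFOS alone, FOS was the 1 gene called (0.00402%, adjusted p = 0.0253), but over the 4 pairs its adjusted p was 0.101. EGR1, a partner immediate early gene, averaged 15.1 and 15.5 CPM in the classes with 35.8 in controls, a difference of -0.07 (-0.29 to 0.16).

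Chromogranin A (CHGA), a secretory granule protein, was among the 10 chain length genes of smallest p. Its PFDS libraries held 412, 305 and 312 CPM, above all 9 libraries of the other 3 compounds, which ran from 239 to 295. The chain length difference was 0.25 (0.11 to 0.39), with no call. The chain call changed with the fit: with only the 12 libraries fitted, 9 genes were called lower in the longer chain, all short structural RNAs, and leaving out PFDA replicate 2, PFDS replicate 3 or PFOS replicate 3 gave 3, 4 and 2 calls. The interaction called 0 genes (0%), with 869 at an unadjusted p under 0.05 (3.49%) and a median interval half-width of 0.422. TEX15, a germline gene, was among its leading genes, with PFOS minus PFOA at -0.26 (-0.43 to -0.08) and PFDS minus PFDA at 0.20 (0.02 to 0.37).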

How the data were processed

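The members and gene lists were chosen with earlier results of these data known. Per the submitters' processing notes, the authors used FastQC, MultiQC, HISAT2, SAMtools, featureCounts and DESeq2 with hg38. Per the file headers, the deposited counts came from featureCounts 2.0.1 with no strand, pair or overlap option, although the kit was stranded. Reads that fell on exons of several genes, on either strand, were therefore left out. The table holds 62656 genes, 99.97% with a symbol, and every row names a gene.

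Counts of all 21 libraries were fitted with edgeR 4.0.16 (R 4.3.3): filterByExpr left 24879 genes, scaling was TMM, and the quasi-likelihood model had 1 mean per group and robust dispersion (biological coefficient of variation 0.112). Contrasts were sulfonates minus carboxylates, longer minus shorter chain and their interaction, adjusted over genes by Benjamini-Hochberg at 0.05, and 4 pairs adjusted jointly. Intervals are Wald 95%. Named genes were, for the head group, up to 20 past the threshold, filled by smallest p among protein-coding genes at 1 CPM or more (10 each for chain length and interaction), up to 3 per list, and EGR1, FOS and SLC7A11. Some genes that this rule selected are not reported here. Overlapping genes are named where the partner had at least 10% of the gene's count. Lowess (span 0.3) removed GC and level trends, an alternative chosen after seeing the data; 94.42% of tested genes had a GC value. The test was checked on simulated data. Same-numbered libraries mostly did not deviate together (2 of 18 pairs correlated above 0.1). Other alternatives were DESeq2 1.42.0 and its size factors, library size scaling, no filter, a stricter filter, a fit of 12 libraries, an additive model, a replicate term, leaving out the 2 libraries of highest mitochondrial share, and leaving out each library. Promoters came from RefSeq (GRCh38.p14). Python 3.11.15 and matplotlib 3.10.9 drew the figures. Precision is limited by counting error at 11245199 to 30429746 counts and by 3 libraries per compound.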

Additional observations from a re-analysis of the deposited data

Results flagged for a closer look

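Dixon's test was applied to the 6 libraries of each class, for 129 named genes and 3 library measures, and marked 10 of 264 sets, where chance marks about 1 in 20. PFDS replicate 1 stood apart among sulfonates in SEMA6A (62.1 CPM against 38.4 to 44.5), in the mitochondrial chaperonin HSPE1 (26.9 against 33.6 to 35.8) and in mitochondrial share (5.24% against 3.61 to 4.12). PFDA replicate 3 stood apart among carboxylates in SHMT2 (68.5 CPM against 52.7 to 55.7), the cell cycle inhibitor CDKN1A (177 against 144 to 156) and the thyroid hormone receptor THRA (48.0 against 40.6 to 42.8). PFDA replicate 2 was high in mitochondrial share (5.4% against 3.37 to 3.79) and in cytochrome b, MT-CYB (3490 CPM against 2180 to 2450). PFOA replicate 1 was low in fibronectin, FN1 (34.5 CPM against 39 to 41.5). PFOA replicate 2 was low in the histone gene H4C14 (1.64 CPM against 2.82 to 3.29).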

How the results depend on the processing

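The sulfonate minus carboxylate comparison kept 0 calls under every alternative but 1: with no filter on low counts it called 1 gene, ALDOA (log2 difference 0.47). That alternative moved the other counts too, to 16 for chain length (2 higher and 14 lower), 1 for the interaction (SLITRK6), 10 for PFDS minus PFDA and 14 for PFDS minus PFOS, and the cause was not tested. The fit of only the 12 libraries and the additive model each called 9 genes for chain length, all lower. The DESeq2 test called 1 gene for PFDS minus PFOS (FOS), and leaving out the 2 libraries of highest mitochondrial share called 1 for chain length (FOS). Leaving out each library in turn gave 0 to 4 calls for chain length (3 without PFDA replicate 2, 4 without PFDS replicate 3 and 2 without PFOS replicate 3) and 0 to 2 for PFDS minus PFOS (1 without PFDA replicate 2, 1 without PFDS replicate 2 and 2 without PFDS replicate 3), and 0 for the other 5 comparisons. The genes at an unadjusted p under 0.05 for the head group ranged from 1228 without PFDA replicate 2 to 2607 without PFDS replicate 1. Of the named genes' values under alternatives, 2750 kept their side of the threshold and 7 passed it, in ALDOA, FOS and CHGA. The DESeq2 size factors, library size scaling and the stricter filter called 0 throughout. Depth limits genes below 1 CPM.

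The replicate block, a term for the replicate number, called 0 genes in each of the 7 comparisons. No label says what a shared number means. Of 18 same-numbered pairs 2 correlated above 0.1 (range -0.135 to 0.241), and 4 of 12 libraries correlated best with their own number.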

Other observations

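Short structural RNAs had lower means in sulfonates and with the longer chain more often than not. The class was chosen after its values were seen, and no member was called in the main fit. Some members were called lower with the longer chain in alternatives, among them SNORA74A in the fit of only the 12 libraries (edgeR adjusted p = 0.00132). Among 574 tested genes of small nucleolar, small nuclear, Cajal body and miscellaneous short RNA, 383 had the lower mean in sulfonates (median log2 difference -0.149) and 363 the lower mean with the longer chain (-0.129). Of all 24879 tested genes 12831 and 12575 were lower, with medians of -0.005 and -0.001. At an unadjusted p under 0.05, 25 of the 574 were lower in sulfonates (3.16% of all genes) and 56 with the longer chain (2.07%). Higher at that p were 2 (3.98%) and 9 (1.81%). Genes at 1 to 3 CPM had a median of -0.065 for sulfonates minus carboxylates, and the part of level in the class medians was not tested. The 125 small nucleolar RNAs, which guide modification of ribosomal RNA, had a median of -0.237 by chain length, with 28 lower at an unadjusted p under 0.05 (2.07% of all genes) and 1 higher (1.81%). They leaned the same way in both head groups, with medians of -0.234 for PFDA minus PFOA and -0.312 for PFDS minus PFOS.

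RNY3P1, a Y RNA pseudogene, stood at 4.54, 3.73 and 3.97 CPM in PFOA and 4.42, 5.4 and 3.51 in PFOS, against 2.73, 3.00 and 1.14 in PFDA and 1.27, 1.26 and 1.94 in PFDS. The 6 longer-chain libraries all lay below the 6 shorter-chain libraries, a log2 difference of -1.20 (95% interval -1.66 to -0.74, edgeR adjusted p = 0.0955). SNORA74A, a small nucleolar RNA, ran from 9.39 to 16.6 CPM with the longer chain and from 17.2 to 22.3 with the shorter (-0.64, -1 to -0.29). Control libraries stood at 1.02, 1.47 and 2.71 CPM for RNY3P1 and at 5.95, 17.1 and 14.6 CPM for SNORA74A. Reads of such RNAs can map to several copies, so these levels are uncertain. The class took 1.44% to 2.96% of counts in the 12 libraries.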
